A study of Mus musculus with 24 samples.

Results

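The genes described here are 9 erythroid genes of the mouse that mark circulating embryonic blood: the globins Hbb-y, Hbb-bh1, Hba-x and Hba-a1, the haem enzyme gene Alas2, the membrane gene Slc4a1, the transcription factor genes Klf1 and Gata1, and the receptor gene Epor. They were taken as a named list by gene identifier, 9 of 26611 identifiers in the count table, and not by a rule on measured values. The list was chosen with earlier results of these data known. All 9 were found in the table, and all 9 passed the filter on low counts.

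The data were RNA-seq counts from 24 libraries of polyadenylated RNA from pharyngeal arches 1 and 2, taken from female C57BL/6 embryos at E10.5. The 6 genotype groups held 4 biological replicates each: wild type (Kat6a +/+, Dlx5 +/+), Kat6a heterozygous (Kat6a +/-, Dlx5 +/+), Dlx5 heterozygous (Kat6a +/+, Dlx5 +/-), double heterozygous (Kat6a +/-, Dlx5 +/-), Dlx5 homozygous (Kat6a +/+, Dlx5 -/-) and Kat6a homozygous (Kat6a -/-, Dlx5 +/+). Kat6a encodes a histone acetyltransferase and Dlx5 a homeodomain transcription factor. The sources used here do not give how the alleles were built or whether embryos were pooled. Embryos came from 2 mouse facilities, named as batches in the labels: wild type and Kat6a homozygous libraries were all in batch 2, Dlx5 homozygous libraries were all in batch 1, and each heterozygous group spanned both.

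Primitive erythroid cells arise in the blood islands of the yolk sac and enter the circulation as nucleated cells. They carry haemoglobins made from the embryonic chains, epsilon y (Hbb-y) and beta h1 (Hbb-bh1) of the beta cluster and zeta (Hba-x) of the alpha cluster, together with the alpha chains that the adult keeps. The transcription factors GATA1 and KLF1 act on globin, haem and membrane genes, and erythropoietin signals through its receptor EPOR to support the survival of red cell precursors. The pharyngeal arches at this stage are perfused by arch arteries, so dissected arches can hold circulating blood cells.

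Total counts on genes ran from 10.4 M to 28.2 M per library. The 10 arch mesenchyme markers examined summed to between 1509.5 and 1989.8 CPM, so their transcripts were present in each library. No other tissue was compared, so the sum does not identify the tissue by itself. The 10 haemoglobin chain genes in the table took between 0.191% and 0.750% of a library's counts. The label check on the targeted genes did not separate the groups: Kat6a had 201 ± 41 CPM (counts per 1 M of library total, the total being scaled by the TMM method, SD, n = 4) in wild type and 227 ± 15 in the libraries labelled Kat6a homozygous, and Dlx5 had 69.3 ± 6.8 in wild type and 62.5 ± 5.1 in those labelled Dlx5 homozygous. Counts over a whole gene need not show the loss of part of it, so group names below are those of the labels.

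The stretch of 250 bases before the annotated start is given for 5 of the members, as examples that hold the letters of motifs that erythroid factors are known to bind. The sequences are from RefSeq (GRCm38.p6), which matched 7 of the 9 members, and each runs 5′ to 3′ on the strand of its gene. Capitals mark matches to GATAA (the core that GATA factors bind), CCNCNCCC (the core that KLF factors bind), CCAAT and TATAA, searched on both strands, so that a match on the other strand appears as its reverse complement and overlapping matches run together.
Hbb-y: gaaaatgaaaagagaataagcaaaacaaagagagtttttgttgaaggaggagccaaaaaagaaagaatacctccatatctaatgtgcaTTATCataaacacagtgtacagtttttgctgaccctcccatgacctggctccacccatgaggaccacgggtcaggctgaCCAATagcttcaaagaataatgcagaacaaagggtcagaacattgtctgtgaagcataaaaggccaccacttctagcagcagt
Hba-x: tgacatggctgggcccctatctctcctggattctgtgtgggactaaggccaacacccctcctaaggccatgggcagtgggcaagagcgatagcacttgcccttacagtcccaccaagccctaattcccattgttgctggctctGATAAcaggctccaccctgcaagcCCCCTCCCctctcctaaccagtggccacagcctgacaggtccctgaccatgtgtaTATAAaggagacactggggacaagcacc
Hba-a1: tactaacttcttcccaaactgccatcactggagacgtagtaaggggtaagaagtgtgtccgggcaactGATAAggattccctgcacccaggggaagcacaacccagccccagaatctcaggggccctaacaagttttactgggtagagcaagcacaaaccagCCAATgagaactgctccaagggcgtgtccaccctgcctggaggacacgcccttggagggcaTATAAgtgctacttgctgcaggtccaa
Alas2: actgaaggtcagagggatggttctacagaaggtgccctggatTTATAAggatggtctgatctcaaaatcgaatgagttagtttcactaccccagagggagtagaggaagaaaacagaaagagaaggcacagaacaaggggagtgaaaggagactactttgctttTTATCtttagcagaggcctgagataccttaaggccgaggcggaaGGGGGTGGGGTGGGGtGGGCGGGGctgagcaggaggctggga
Klf1: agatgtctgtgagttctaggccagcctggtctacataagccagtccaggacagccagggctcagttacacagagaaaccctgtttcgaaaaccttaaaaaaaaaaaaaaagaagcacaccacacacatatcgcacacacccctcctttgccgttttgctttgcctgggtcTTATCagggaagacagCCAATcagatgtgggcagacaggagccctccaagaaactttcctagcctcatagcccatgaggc
These windows lie at chr7:103853208-103853457 (Hbb-y, minus strand), chr11:32276350-32276599 (Hba-x, plus strand), chr11:32283422-32283671 (Hba-a1, plus strand), chrX:150547167-150547416 (Alas2, plus strand) and chr8:84901732-84901981 (Klf1, plus strand).

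GATAA was found in 6 of the 7 member windows (Hba-a1, Hba-x, Hbb-y, Alas2, Klf1 and Epor), against 23.0% of 27025 promoter windows of the same length. Of the matched windows not printed, that of Epor held GATAA and that of Gata1 did not, so every printed window holds it. CCNCNCCC was found in 4 of 7 (Hba-x, Alas2, Gata1 and Epor) against 45.6% of all windows, CCAAT in 3 of 7 (Hba-a1, Hbb-y and Klf1) against 34.5%, and TATAA in 3 of 7 (Hba-a1, Hba-x and Alas2) against 23.5%. In both alpha cluster genes the TATAA letters began close to the start, 27 bases before it in Hba-a1 and 28 bases before it in Hba-x. The GATAA match began 162 bases before the start in Hbb-y, 107 in Hba-x, 182 in Hba-a1, 86 in Alas2 and 80 in Klf1, counted from its leftmost base, so its distance was not shared. Alas2 held 4 overlapping or adjacent CCNCNCCC matches between 42 and 26 bases before its start, all on the minus strand. A match describes letters and does not show a bound site.

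The members spanned almost 3 orders of magnitude. On a scale corrected for gene length (CPM per kilobase, mean of 24 libraries), the level was 1953 for Hbb-y, 1754 for Hba-x and 1144 for Hbb-bh1, the 3 embryonic chains. Hbb-y stood above Hba-x in 23 of 24 libraries, and Hba-x above Hbb-bh1 in all 24. The next chain, Hba-a1, had 70.9 CPM per kilobase. Hba-a1 has a near-identical copy, Hba-a2 (175 CPM per kilobase). The sources used here do not give whether reads matching both copies were counted, or how they were divided. The level of either copy, and of their sum, is therefore uncertain.

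Outside the globins, Alas2, the erythroid form of the first enzyme of haem synthesis, had 18.1 CPM per kilobase, and Slc4a1, the band 3 anion exchanger of the red cell membrane, had 17.1. Their order held in 18 of 24 libraries, and their ranges overlapped almost wholly. Epor (3.14) and Klf1 (3.13) could not be ordered, since Epor stood above Klf1 in 11 of 24 libraries. Gata1 was the lowest at 2.27 CPM per kilobase, below Klf1 in 22 of 24. In reads, Hbb-y had 8059 to 35750 counts per library, whereas Klf1 had 33 to 141, Gata1 29 to 117 and Epor 41 to 140, so counting error weighs more on the last 3 genes.

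Among libraries, each member varied several-fold. Hbb-y had 1281, 808, 1025 and 1861 CPM in wild type replicates 1 to 4 and 1451, 1415, 1253 and 715 CPM in Kat6a heterozygous replicates 1 to 4. It had 936, 1118, 1081 and 750 CPM in the Dlx5 heterozygous libraries and 1334, 936, 950 and 817 CPM in the double heterozygous libraries. It had 1934, 924, 1089 and 1594 CPM in the Dlx5 homozygous libraries and 918, 971, 990 and 2868 CPM in the Kat6a homozygous libraries. Every group overlapped every other, and the highest value of the series belonged to Kat6a homozygous replicate 4. In bulk tissue, a smaller number of red cells and less of the RNA per red cell cannot be told apart.

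Hba-x varied alike, with 1097, 731, 813 and 1714 CPM in wild type, 781 to 1581 CPM in Dlx5 homozygous libraries, and 917, 872, 888 and 2662 CPM in Kat6a homozygous libraries. Hbb-bh1 had 645, 319, 604 and 1086 CPM in wild type and 499.9, 532, 668 and 1539 CPM in Kat6a homozygous libraries. Hba-a1 had 39.1, 25.8, 32.3 and 68.6 CPM in wild type and 29.3, 32.8, 28.2 and 92.2 CPM in Kat6a homozygous libraries. In all 4 globins replicate 4 of both groups stood clear of the other 3 libraries, and wild type replicate 2 was the lowest wild type library.

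Within these 2 groups the non-globin members showed the same libraries on top. Alas2 had 35.0, 22.9, 32.3 and 50.8 CPM in wild type and 30.6, 35.0, 31.7 and 86.4 CPM in Kat6a homozygous libraries. Slc4a1 had 76.7, 45.5, 63.5 and 100.3 CPM in wild type and 59.1, 66.8, 63.5 and 187 CPM in Kat6a homozygous libraries. Wild type replicate 4 was the highest wild type library, and Kat6a homozygous replicate 4 the highest of all 24 libraries, for each of the 9 members.

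Klf1, the factor required for beta globin expression, had 4.69, 3.35, 4.67 and 6.72 CPM in wild type and 4.63, 3.16, 4.25 and 3.90 CPM in Kat6a heterozygous libraries. It had 4.47, 5.47, 5.33 and 6.20 CPM in double heterozygous libraries and 5.43, 4.40, 3.10 and 12.4 CPM in Kat6a homozygous libraries. Unlike the globins, it was not higher in Dlx5 homozygous replicate 1 (4.26 CPM) than in replicates 3 (4.78) and 4 (5.32). Gata1, the X-linked zinc finger factor of the erythroid lineage, ran from 2.51 to 7.06 CPM in wild type and from 2.87 to 9.33 CPM in Kat6a homozygous libraries. Epor ran from 3.35 to 7.48 CPM in wild type and from 4.56 to 11.1 CPM in Kat6a homozygous libraries.

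**Figure D1:**
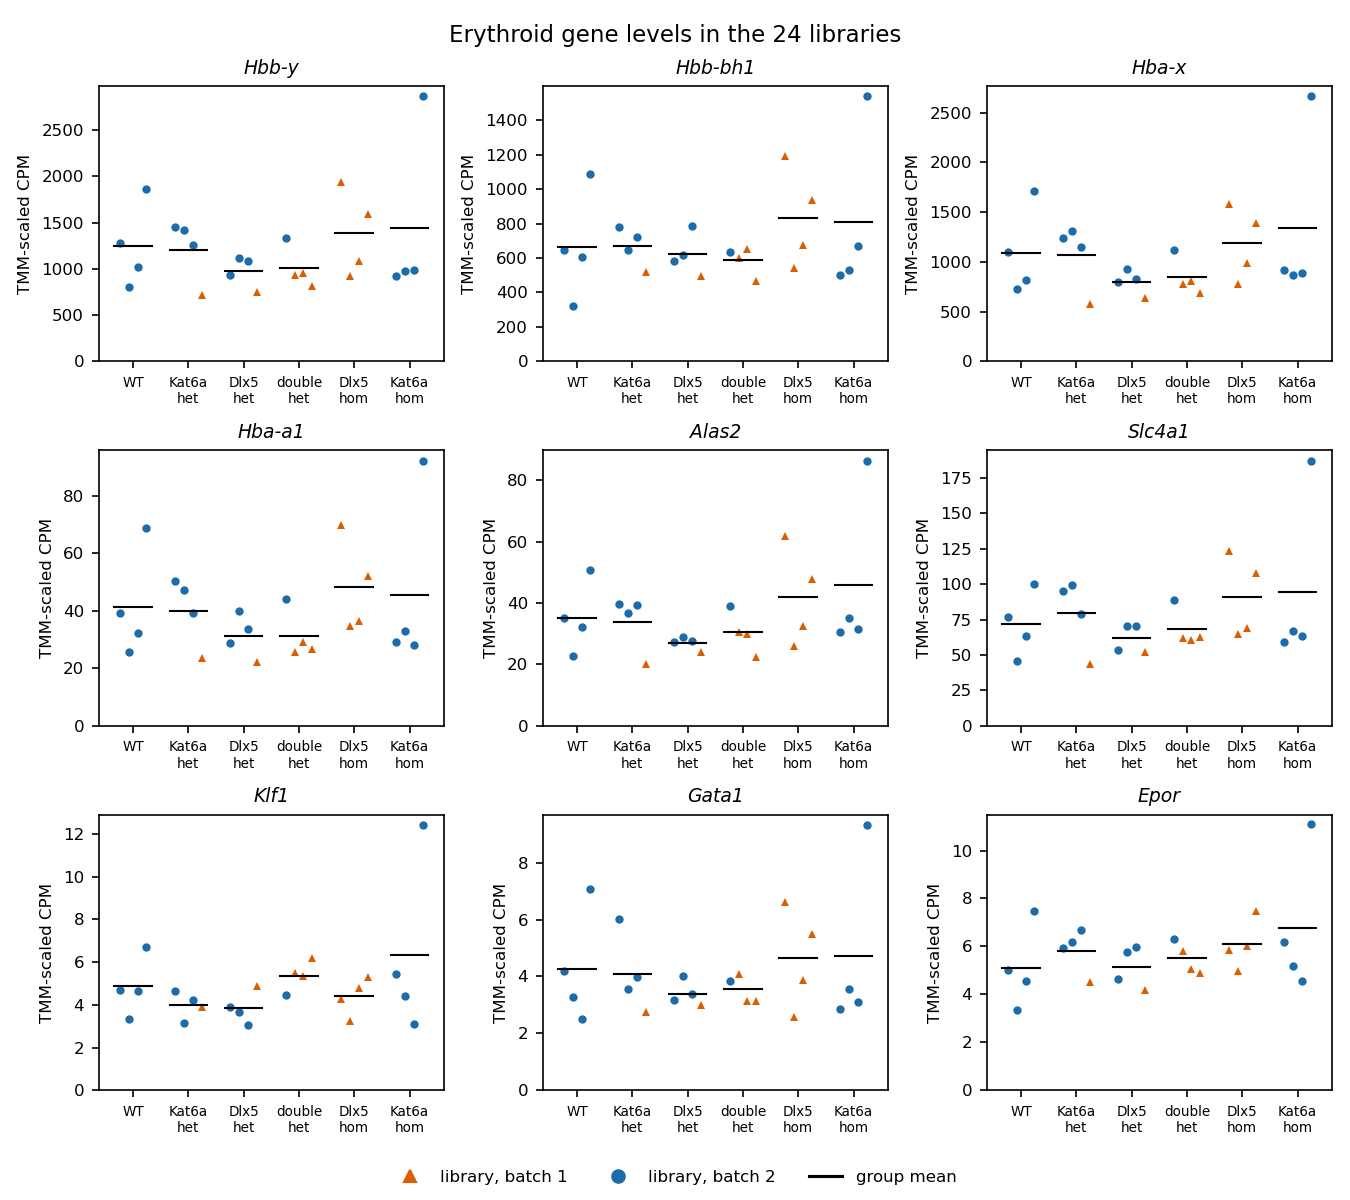
Levels of the 9 erythroid genes in TMM-scaled CPM (vertical axes, linear, from 0) in each of the 24 libraries, by genotype group, with triangles for batch 1, circles for batch 2 and a bar at each group mean. Kat6a homozygous replicate 4 is the highest point in every panel, at 2868 CPM for Hbb-y, and all groups overlap the wild type libraries.

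Over the 24 libraries the highest value was 4.01 times the lowest for Hbb-y, 4.65 times for Hba-x and 4.83 times for Hbb-bh1. The coefficient of variation was 26.4% for Epor and between 37.6% and 42.8% for the other 8 members, which placed the members between the 85.3rd and the 96.3rd percentile of the 14506 genes tested, taken over all levels of expression. Replicates of one genotype accounted for much of this range, since the 4 Kat6a homozygous libraries alone ran from 918 to 2868 CPM of Hbb-y.

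The first question was whether any genotype changed the erythroid genes. Each mutant group was compared with the same 4 wild type libraries, so the 5 comparisons share their controls, by edgeR's quasi-likelihood test with a batch term on all 14506 genes, with genes called where the p adjusted over all of them (Benjamini-Hochberg) was under 0.05. No member was called in any of the 5 comparisons, none had an unadjusted p under 0.05, and DESeq2 and limma voom called 0 of 9 as well. Of all genes tested, edgeR called 0% in Kat6a heterozygous libraries (1648 genes had an unadjusted p under 0.05), 0% in Dlx5 heterozygous libraries (1645 genes), 0.448% in double heterozygous, 0.0551% in Dlx5 homozygous and 1.53% in Kat6a homozygous libraries. The joint test for any difference among the 6 groups also called 0 of 9 members, against 1.39% of all genes. The precision of these comparisons was low. Standard errors of the members' log2 fold changes ran from 0.22 to 0.36 in the Kat6a homozygous comparison, against a median of 0.10 over all genes. In the Dlx5 homozygous comparison they ran from 0.31 to 0.50, against a median of 0.13.

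In Kat6a homozygous libraries all 9 members had fitted log2 fold changes above 0, between 0.14 and 0.40 with a median of 0.29, beside a median of 0.01 over all genes. Hbb-y had 1437 ± 955 CPM there and 1244 ± 454 in wild type (SD, n = 4 and 4), which gave 0.21 on the log2 scale (SE 0.33, 95% interval −0.50 to 0.91, edgeR adjusted p = 0.836). Epor had the lowest adjusted p (0.432), with a log2 fold change of 0.40 (SE 0.22). The direction rested on replicate 4: without it, Hbb-y stood at −0.38, the median of the members at −0.24, and only Epor, at 0.05, was above 0. Without wild type replicate 4 the median was 0.58, without wild type replicate 2 it was 0.13, and without replicate 4 of both groups it was 0.02. Leaving out any of Kat6a homozygous replicates 1 to 3 gave 0.44.

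The summed level of the yolk sac endoderm and liver markers was also highest in Kat6a homozygous replicate 4. The 6 genes of that list summed to 15.7 CPM in it and to between 1.81 and 3.22 CPM in the other 3 libraries of the group. The sum was 3.54 to 8.24 CPM in wild type, 2.84 to 4.11 in Kat6a heterozygous, 2.76 to 4.59 in Dlx5 heterozygous, 3.55 to 4.47 in double heterozygous and 2.80 to 8.86 in Dlx5 homozygous libraries. Afp, the fetal alpha-fetoprotein gene, had 7.13 CPM in that library, 3.61 in wild type replicate 4 and 3.46 in Dlx5 homozygous replicate 4, and at most 1.59 elsewhere, while Alb, the liver albumin gene, was at 0 in all 3. Apoa1 (2.73 CPM) and Ttr (2.03 CPM) were likewise highest in Kat6a homozygous replicate 4, whereas Apob, at 3.61 CPM there and 3.94 in wild type replicate 1, and Apoa4, at 0.18 there and 0.24 in Dlx5 homozygous replicate 4, were not. The part of such tissue in the erythroid values was not tested.

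In Dlx5 homozygous libraries 8 of 9 members had fitted log2 fold changes above 0, with a median of 0.78, and the exception was Klf1 at −0.41 (SE 0.41, edgeR adjusted p = 0.752). Hbb-y had 1385 ± 464 CPM (SD, n = 4). Its log2 fold change was 0.81 (SE 0.46, 95% interval −0.17 to 1.79, edgeR adjusted p = 0.572). Slc4a1 stood at 0.96 (SE 0.47) and Epor at 0.63 (SE 0.31), both with an edgeR adjusted p of 0.509, the lowest among the members. These values rested on the batch term, since this group shared no batch with wild type: without the term, Hbb-y stood at 0.16 and the members' median at 0.22. In this comparison the genotype and the facility are separated only by the model.

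The heterozygous groups stood near wild type. In Kat6a heterozygous libraries the members' median log2 fold change was 0.08, from −0.35 (Klf1) to 0.27 (Epor), and the lowest edgeR adjusted p was 0.675. With the replicate number as a block the median was 0.28 and the lowest adjusted p 0.444. In Dlx5 heterozygous libraries the median was −0.24, from −0.39 (Klf1) to 0.10 (Epor), and the lowest adjusted p was 0.665. In double heterozygous libraries the median was 0.13 with 8 of 9 above 0, and the lowest adjusted p was 0.580, for Epor at 0.39 (SE 0.28). These directions were not stable: without wild type replicate 4 the Dlx5 heterozygous median was 0.08 and the Kat6a heterozygous median 0.39, without wild type replicate 2 the Kat6a heterozygous median was −0.09 and the double heterozygous median −0.03, and without the batch term the medians were −0.04 (Kat6a heterozygous) and −0.21 (double heterozygous). The value of the double heterozygous group beyond the sum of both single heterozygous values had a median of 0.27 over the members, 0 of 9 called (lowest adjusted p 0.896) against 0.00689% of all genes.

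**Figure D2:**
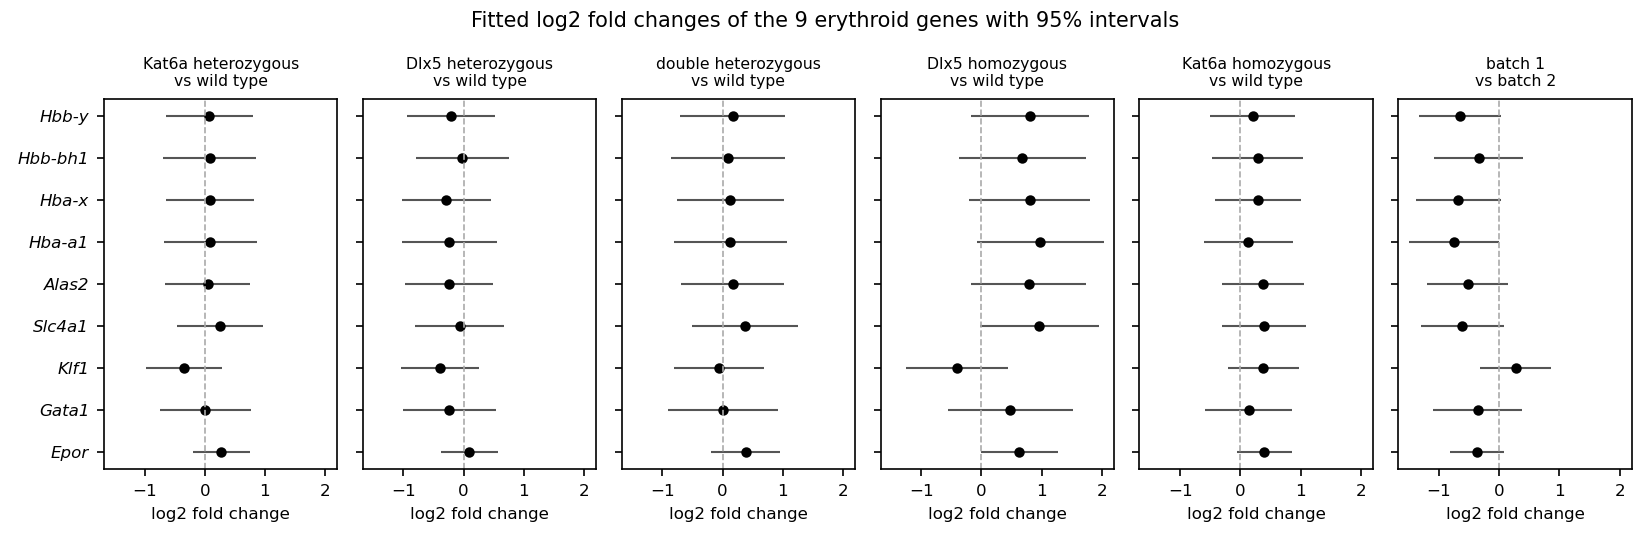
Fitted log2 fold changes of the 9 erythroid genes (points) with 95% intervals (lines) in the 5 genotype comparisons with wild type and in the comparison of batch 1 with batch 2. The intervals of the genotype comparisons all span 0, and for Hbb-y in Kat6a homozygous libraries the interval runs from −0.50 to 0.91.

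No member separated from wild type in its raw levels either. In each of the 5 comparisons, 0 of 9 members had 4 mutant libraries all on one side of the 4 wild type libraries. Over all genes tested that held for 3.01% in Kat6a heterozygous, 3.61% in Dlx5 heterozygous, 6.11% in double heterozygous, 4.6% in Dlx5 homozygous and 6.4% in Kat6a homozygous libraries.

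The 3 heterozygous groups spanned both facilities, so their libraries were compared by batch, pooled over the 3 genotypes, which the batches held in unequal numbers. Hbb-y ran from 715 to 950 CPM (median 817) in their 5 libraries of batch 1 and from 936 to 1451 CPM (median 1253) in their 7 libraries of batch 2. Hba-x ran from 572 to 811 CPM in batch 1 and from 799 to 1305 in batch 2, and Hba-a1 from 22.2 to 29.0 and from 28.7 to 50.2 CPM. The batches thus overlapped by a narrow margin in these 3 globins, and 0 of 9 members were free of overlap, against 0.434% of all genes. Klf1 lay the other way, at 3.90 to 6.20 CPM in batch 1 and 3.03 to 4.63 CPM in batch 2. Its highest batch 1 values were those of the double heterozygous libraries (5.47, 5.33 and 6.20 CPM). Within genotype, batch 1 lay above batch 2 for Klf1 in Dlx5 and double heterozygous libraries. In Kat6a heterozygous libraries its batch 1 value (3.90 CPM) lay inside the batch 2 range (3.16 to 4.63 CPM).

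In the model over all 24 libraries, 8 of 9 members were below 0 for batch 1 relative to batch 2, with a median log2 fold change of −0.53, and Klf1 stood at 0.27. None was called, against 0.0345% of all genes. Hba-a1 had the lowest p, at −0.75 (SE 0.36, edgeR adjusted p = 0.765), and was the 1 member with an unadjusted p under 0.05. Fitted on the 12 heterozygous libraries alone, the fold changes were of the same size and 3 members were called, all lower in batch 1: Hba-a1 by −0.75 (edgeR adjusted p = 0.00348), Hbb-y by −0.66 (adjusted p = 0.00348) and Hba-x by −0.68 (adjusted p = 0.0152), against 0.148% of the 14202 genes tested there. Of the 5 libraries of batch 1, 3 were double heterozygous, so facility and that genotype partly coincide.

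The members moved together from library to library. Over the 24 libraries, log2 CPM of Hba-x correlated with that of Hbb-y at Pearson r = 0.986 (Spearman rho = 0.955), Hba-a1 at 0.980 (0.942) and Slc4a1 at 0.973 (0.962). Alas2 followed at 0.964 (0.917), Hbb-bh1 at 0.904 (0.884), Gata1 at 0.902 (0.817) and Epor at 0.834 (0.750). For these 7 genes the permutation p for r was 1e-05, the smallest that 100000 resamples can give, and 1.14e-05 when adjusted over 8 relations. The points share their library, so depth and RNA composition are common to both axes, although leaving the haemoglobin genes out of the library sizes left every r as it was to 2 decimals.

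These 7 relations did not rest on the extreme libraries. Without Kat6a homozygous replicate 4 and Dlx5 homozygous replicate 1, the 2 libraries farthest from the median of Hbb-y, r was 0.976 for Hba-x, 0.968 for Hba-a1, 0.948 for Slc4a1, 0.929 for Alas2, 0.821 for Hbb-bh1, 0.819 for Gata1 and 0.785 for Epor. Within batch 1 (9 libraries) r was between 0.792 (Epor) and 0.995 (Hba-x), and within batch 2 (15 libraries) between 0.877 (Epor) and 0.984 (Hba-a1). With group means subtracted, r was between 0.873 (Epor) and 0.989 (Hba-x), so the libraries of one genotype varied along the same line.

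Klf1 stood apart. Its r with Hbb-y was 0.509 (permutation p = 0.0140, adjusted p = 0.0140) and its rho 0.141 (permutation p = 0.510). Without the 2 farthest libraries, which were left out only together, r was 0.192 (permutation p = 0.391). It was −0.000594 within batch 1 and 0.770 within batch 2, the batch that holds Kat6a homozygous replicate 4. With group means subtracted, r was 0.579 (permutation p = 0.00378) and rho 0.397 (permutation p = 0.0572), so the relation of Klf1 depended on the setting. The part of counting error in this relation was not tested.

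**Figure D3:**
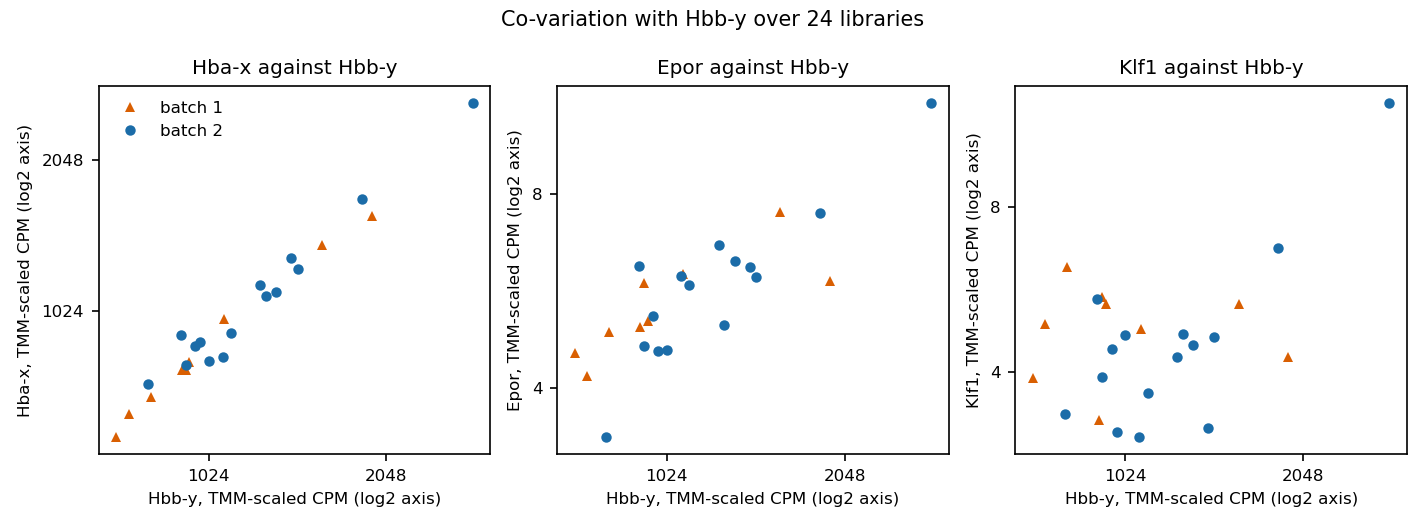
Levels of Hba-x, Epor and Klf1 (vertical axes) against Hbb-y (horizontal axes) in TMM-scaled CPM on log2 axes, 1 point per library, triangles for batch 1 and circles for batch 2. Hba-x lies along a line (r = 0.986), Epor follows with more scatter (r = 0.834), and Klf1 shows little relation apart from the top right library (r = 0.509 with all 24 libraries).

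Ratios of erythroid genes within a library compare the chains with each other rather than with the rest of the tissue. Hbb-y to Hbb-bh1, the 2 embryonic beta chains, was 1.98 ± 0.39 in wild type, 1.79 ± 0.34 in Kat6a heterozygous, 1.57 ± 0.18 in Dlx5 heterozygous, 1.71 ± 0.28 in double heterozygous, 1.66 ± 0.05 in Dlx5 homozygous and 1.75 ± 0.18 in Kat6a homozygous libraries (SD, n = 4 each). Hba-a1 plus Hba-a2 over Hba-x was 0.130 ± 0.008 in wild type and between 0.122 (Kat6a heterozygous) and 0.139 (Dlx5 heterozygous and Dlx5 homozygous) in the mutant groups. Summing both alpha copies removes their division, but reads matching both copies may not have been counted, so the ratio's absolute size is uncertain. Alas2 over the 4 globin members was 0.0119 ± 0.0010 in wild type and 0.0130 ± 0.0011 in Kat6a homozygous libraries.

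None of the 15 differences from wild type was called. The lowest adjusted p was 0.571 by the two-sided exact permutation test, which with 4 against 4 libraries cannot go below 0.0286 before adjustment. A single difference at that floor could not pass 0.05 once adjusted over the 15 tests, and most of them would have had to reach it. The test could therefore hardly have called a difference in a single ratio or group. The lowest raw exact p was 0.0857, for Hbb-y to Hbb-bh1 in Dlx5 heterozygous libraries, a log2 difference of −0.32. The ratios were much tighter than the levels: over the 24 libraries the alpha ratio ran from 0.113 to 0.150 and the beta ratio from 1.37 to 2.54, the latter set by wild type replicate 2. Kat6a homozygous replicate 4, which had the highest levels, had ordinary ratios, at 1.86 for Hbb-y to Hbb-bh1.

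**Figure D4:**
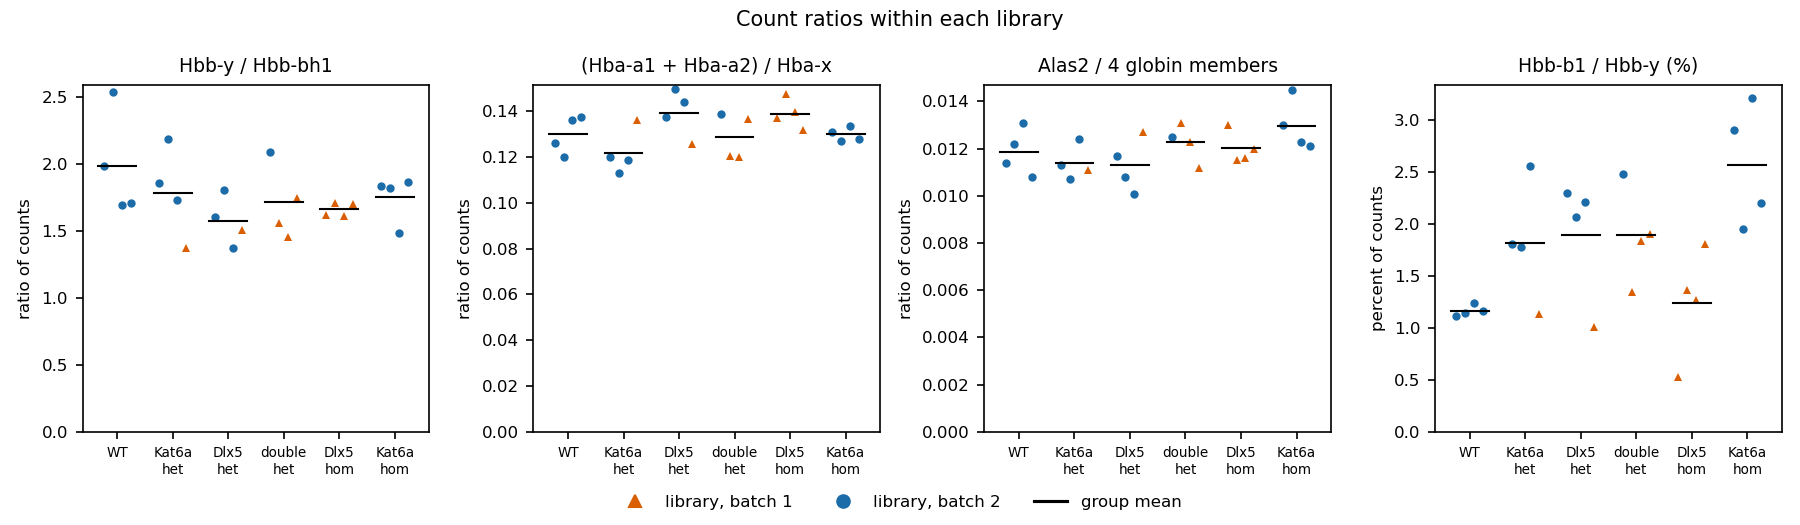
Ratios of counts within each library (vertical axes, linear, from 0) by genotype group, with triangles for batch 1, circles for batch 2 and bars at group means. The first 3 panels show Hbb-y over Hbb-bh1, both alpha copies over Hba-x and Alas2 over the 4 globin members, and the last shows Hbb-b1 as a percent of Hbb-y, where the 4 wild type libraries lie between 1.11% and 1.24%, below every mutant library of batch 2: between 1.78% and 2.56% in the heterozygous groups and between 1.95% and 3.21% in Kat6a homozygous libraries.

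The adult-type beta chain entry Hbb-b1 behaved differently from the embryonic chains, and its ratio was chosen after its values were seen. It had 14.4 ± 5.2 CPM in wild type and 35.1 ± 19.4 CPM in Kat6a homozygous libraries (SD, n = 4 each), a log2 fold change of 1.28 (SE 0.35, edgeR adjusted p = 0.0784), so it was not called. Relative to Hbb-y it stood at 1.16% ± 0.06 in wild type and 2.56% ± 0.59 in Kat6a homozygous libraries, and these 2 groups did not overlap. The separation was not limited to that group: the 7 heterozygous libraries of batch 2 lay between 1.78% and 2.56%, also above all 4 wild type libraries, while the 9 libraries of batch 1 ran from 0.523% to 1.90% and overlapped wild type. DESeq2 called it (adjusted p = 0.0184), whereas in edgeR without Kat6a homozygous replicate 4 the log2 fold change was 0.83 (adjusted p = 0.239). The edgeR fit did call it without Dlx5 homozygous replicate 4 (adjusted p = 0.0379) or without Kat6a homozygous replicate 2 (adjusted p = 0.0471). In double heterozygous libraries it stood at 1.44 (edgeR adjusted p = 0.153, DESeq2 0.0458, 0.44 without the batch term). Hbb-b1 also differed between batches: in the heterozygous groups it had 7.58 to 17.4 CPM in batch 1 and 21.5 to 33.1 CPM in batch 2, with no overlap. Its log2 fold change for batch 1 was −1.46, with an edgeR adjusted p of 0.259 over all 24 libraries and 3.6e-05 on the 12 heterozygous libraries, and a DESeq2 adjusted p of 0.00756. Adult beta genes exist as near-identical copies that differ between mouse strains, so which copy these reads came from is uncertain.

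Other genes of the erythroid programme were examined in the same fits. Of 81 further genes in 7 erythroid lists, 73 were tested, and 0 of 73 were called in any of the comparisons with wild type, beside the shares of all genes given above. In Kat6a homozygous libraries 52 of the 73 were above 0 (median 0.12), and in Dlx5 homozygous libraries 58 of 73 (median 0.25), beside medians of 0.29 and 0.78 for the members. The other globin chains (4 genes tested) lay farthest from 0 of the 7 lists, with medians of 0.53 and 1.5 in these 2 groups. Among them were Hba-a2 at 0.32 and 0.90 and Hbb-b1 at 1.28 and 1.65. The 18 genes of the red cell membrane and skeleton list had medians of 0.33 and 0.67 in these 2 groups, among them Sptb, beta spectrin, at 0.36 and 0.25, and Epb41, protein 4.1, at −0.00 and 0.14. Haem synthesis, 11 genes, stood at medians of −0.01 and −0.01, with Urod, uroporphyrinogen decarboxylase, at −0.06 and −0.07 and Tmem14c, a mitochondrial porphyrin carrier, at −0.05 and −0.06.

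Iron uptake (8 genes tested) had medians of 0.02 in Kat6a homozygous and 0.23 in Dlx5 homozygous libraries, with Fth1, the ferritin heavy chain, at −0.01 and −0.17. Erythroid transcription factors (12 genes) had medians of 0.15 and 0.19, with Bcl11a, a repressor of embryonic globins, at 0.28 and 0.37 and Ldb1, the partner that joins GATA1 complexes, at −0.00 and 0.02. Erythroid signalling (8 genes) had medians of −0.01 and 0.02, with Kit, the stem cell factor receptor, at −0.03 and 0.11. The late erythroid list (12 genes tested) had medians of 0.19 and 0.32, with Bpgm, the enzyme that makes bisphosphoglycerate, at −0.07 and 0.08.

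The genes most like the members were named by the correlation of their log2 CPM with the mean of the members over the 24 libraries. Among the first 10 were Ermap (r = 0.972), Hba-a2 (0.958), the mitochondrial iron importer gene Slc25a37 (0.953), Hemgn (0.947), the ankyrin gene Ank1 (0.934), Acp5 (0.926), the red cell pyruvate kinase gene Pklr (0.926), the protein 4.2 gene Epb42 (0.925) and Adra2b (0.915). Acp5 and Adra2b were in none of the erythroid lists. Of the 73 tested list genes, 26 had r of at least 0.8, 44 at least 0.5 and 13 below 0.

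Likeness differed by list. The median r was 0.66 for the other globin chains, 0.61 for haem synthesis, 0.44 for iron uptake, 0.85 for membrane and skeleton genes and 0.84 for late erythroid genes, but 0.12 for the transcription factors and 0.13 for the signalling genes, beside −0.02 over all genes. The transcription factor list was split, from −0.43 (Myb) to 0.89 (Tal1), with 7 of 12 above 0. Nfe2 (0.88) and Gfi1b (0.82) lay near its top, Zbtb7a (−0.35) and Sox6 (−0.25) near its bottom. The signalling genes ran from −0.45 to 0.42. Among markers of other cells, r lay between −0.10 and 0.17 for the 12 endothelial markers, between −0.04 and 0.26 for the 12 macrophage and leukocyte markers, and between −0.33 and 0.22 for the 10 arch mesenchyme markers. The 8 megakaryocyte and platelet markers lay higher, with a median r of 0.36 and a range from −0.16 to 0.55, and so did the 2 yolk sac endoderm and liver markers that passed the filter, at 0.26 and 0.76. All 12 neuron markers were below 0, from −0.37 to −0.14. Their summed level, which differs widely between dissections, ran from 55.1 to 483 CPM in wild type, 48.6 to 556 in Kat6a heterozygous, 69.5 to 395 in Dlx5 heterozygous, 144.0 to 320 in double heterozygous, 44.7 to 63.7 in Dlx5 homozygous and 46.8 to 305 CPM in Kat6a homozygous libraries. Whether the nerve content of a dissection bears on its erythroid values was not tested.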

How the data were processed

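Per the file headers and values, the authors deposited unnormalized counts for each gene under Entrez identifiers, in 1 table and again, with identical values, in 24 files of single samples. Base calling used CASAVA 1.8.2, counting used featureCounts and the build was mm10, per the submitters' processing notes. The kit was stranded and selected mRNA, per the labels' protocols. The sources used here do not give the aligner, annotation or strand setting, so overlapping or near-identical genes may share counts. Left out of all steps were 568 of 27179 entries that had no identifier (0.182% to 0.259% of a library's counts). Symbols were found for 25275 of 26611 identifiers.

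Genes kept by filterByExpr (14506) were scaled by TMM and tested in edgeR 4.0.16 under R 4.3.3 with robust quasi-likelihood dispersions, 6 group means, a batch term and 17 residual degrees of freedom. Standard errors came from the test statistic, log2 CPM had a prior count of 2, and log2 ratios had 0.5 counts added to each gene. Correlations were tested with 100000 permutations in Python 3.11.15. The procedure was tested on simulated data. Replicate pairs differed by at least 3.04 times the chi-square that sampling gives, so each counted as 1 library.

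The members and lists were chosen with earlier results of these data known. Named genes were the members, up to 4 called genes of each list or else its 2 with the highest mean CPM, and the 10 genes most like the members. Alternatives were DESeq2 1.42.0, limma 3.58.1 (voom), RLE scaling, 2 other filters (none, or at least 1 CPM in 12 libraries), haemoglobin genes kept out of library sizes, a model lacking the batch term, batch 2 by itself, fits restricted to the groups of a comparison, a replicate block, and omission of every library in turn. Leaving out replicate 4 of wild type and of Kat6a homozygous together was chosen after seeing the data. Same-numbered libraries of wild type and Kat6a heterozygous deviated together (residual correlations 0.183 to 0.661), so their numbers were taken as pairs from the data alone, since the labels give no origin for them. The 0.661 was that of replicate 2, the library with the highest neuron marker sum in both groups (483 and 556 CPM). The other correlations were at most 0.200. Replicate 4 was in batch 2 in wild type but in batch 1 in Kat6a heterozygous. Whether shared nerve content gave the correlation was not tested. In each comparison of another mutant group with wild type at least 1 pair was at or below 0.0949. One of the genes that the naming rule selected is not reported here.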

Additional observations from a re-analysis of the deposited data

Results flagged for a closer look

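In Kat6a homozygous replicate 4, 7 of the 9 erythroid genes lay far from the other 3 libraries of the group, measured by the gap to the nearest library as a share of the group's range. The levels were 92.2 CPM for Hba-a1, 2662 for Hba-x, 1539 for Hbb-bh1, 2868 for Hbb-y, 86.4 for Alas2, 187 for Slc4a1 and 9.33 for Gata1. The flags are not independent, since these genes move together. Klf1 (12.4 CPM) and Epor (11.1 CPM) were also highest in that library.

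Alas2 was low in Kat6a heterozygous replicate 4 (20.2 CPM), the batch 1 library of its group. Slc4a1 was high in double heterozygous replicate 1 (89.1 CPM), the batch 2 library of its group. The log2 ratio of Hbb-y to Hbb-bh1 was low in Kat6a homozygous replicate 3 (0.57). In all, 10 of 72 groups of 4 values stood out in this way, and chance alone gives about 1 in 20.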

How the results depend on the processing

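No member was called in any comparison of a mutant group with wild type, for the non-additive value or in the joint test under any alternative run, including each library left out. The lowest adjusted p under them was 0.127, for Dlx5 homozygous libraries without replicate 4 of both the wild type and the Kat6a homozygous group. With the replicate number as a block (pairing by number), 0 of 9 members were called in each comparison, so the block changed no member's call. Under it the members' median was 1.16 in Dlx5 homozygous libraries, where Klf1 turned from −0.41 to 0.085, and 0.57 in double heterozygous libraries. For the batches, fitting only the 12 heterozygous libraries called 3 members instead of 0, with fold changes of the same size, and the cause was not tested. Co-variation of Klf1 with Hbb-y was 0.192 without the 2 farthest libraries and −0.000594 within batch 1, but 0.770 within batch 2 and 0.579 with group means subtracted. The other 7 relations kept their calls under each alternative. No ratio difference was called, but a single difference at the floor of the exact test could not have passed once adjusted. This held with 4 against 4 libraries and with a library left out. With the batch effect subtracted, Hbb-y to Hbb-bh1 turned from −0.20 to 0.03 in double heterozygous and from −0.24 to 0.08 in Dlx5 homozygous libraries. Hbb-b1, no member, passed the threshold under the block in double heterozygous (edgeR adjusted p = 0.0148), Dlx5 homozygous (0.0282) and Kat6a homozygous libraries (0.00819). In Kat6a homozygous libraries it also passed without Dlx5 homozygous replicate 4 (edgeR adjusted p = 0.0379) or Kat6a homozygous replicate 2 (0.0471). Batch 2 alone and the fit of only the groups compared could not be run for Dlx5 homozygous libraries, whose batch coincides with the genotype. The upper bounds of the members' 95% intervals ran from 0.86 to 1.09 on the log2 scale in Kat6a homozygous libraries, so increases up to those sizes lie within the intervals.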
